A study of Mus musculus with 6 samples.

Results

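The apolipoprotein genes Apoe, Apoc1, Apoc4 and Apoc2, which lie side by side on mouse chromosome 7, and the unlinked genes Apob, Apoa2, Apoh and Apom were followed in the livers of mice on a high-fat and a low-fat diet. The members are all probe sets whose single gene symbol in the platform's gene table is one of these 8 names, which gave 11 probe sets of the 10855 with a single symbol and 8 of 8252 genes. The rule reads names only, but the 8 genes were picked with earlier results of these data known, so counts over them are a description.

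Total RNA from the livers of C57BL/6 mice, an inbred strain widely used in the laboratory, was hybridised to 6 Affymetrix arrays. The mice behind 3 arrays had eaten a fat-rich Western-style diet for 12 weeks and those behind the other 3 a low-fat diet for the same 12 weeks, and these diets are the only comparison. The 6 arrays are labelled C57BL/6 with no altered allele, and age and sex are not stated in the labels. The labels do not say whether an array holds 1 mouse or a pool, so p-values measure only the spread between these arrays, which may be technical.

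Apolipoproteins are the protein part of lipoproteins, the particles that carry triglyceride and cholesterol through plasma, and the liver is their main source. Apolipoprotein B is the scaffold of very-low-density lipoprotein and its remnants. Apolipoprotein E, from Apoe, is the ligand by which receptors on hepatocytes take up remnants. The small C apolipoproteins move between particles, and among them apolipoprotein C-II, from Apoc2, is the cofactor without which lipoprotein lipase does not release fatty acids from triglyceride. Apolipoproteins A-II and M travel mainly on high-density lipoprotein, and apolipoprotein H, also called beta-2 glycoprotein I, binds phospholipids in plasma.

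Of the 8 genes, Apoc2 alone passed the test, with a transcript level 1.99-fold higher with the high-fat diet. Apom differed by a similar factor the other way, with a low-fat level 2.03 times the high-fat level, but did not pass. The probe sets of Apoe, Apoc1 and Apoc4, the neighbours of Apoc2, and those of Apob, Apoa2 and Apoh did not pass. In all, 9 of the 11 probe sets were bright enough to be tested, covering all 8 genes. Of these 9, 1 rose, 0 fell and 8 did not pass an adjusted p of 0.05 in limma. Over all 8950 tested probe sets, 0.402% were called higher, 0.425% lower and 0.827% in either direction. An unadjusted p under 0.05 was reached by 2 of the 9, against 9.07% of all tested probe sets. High-fat and low-fat arrays were fully separated for 2 of the 9, Apoc2 and Apom, against 14.1% of all tested probe sets. The median log2 fold change was 0.11 for the 9 and 0.0026 for all tested probe sets.

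**Figure D1:**
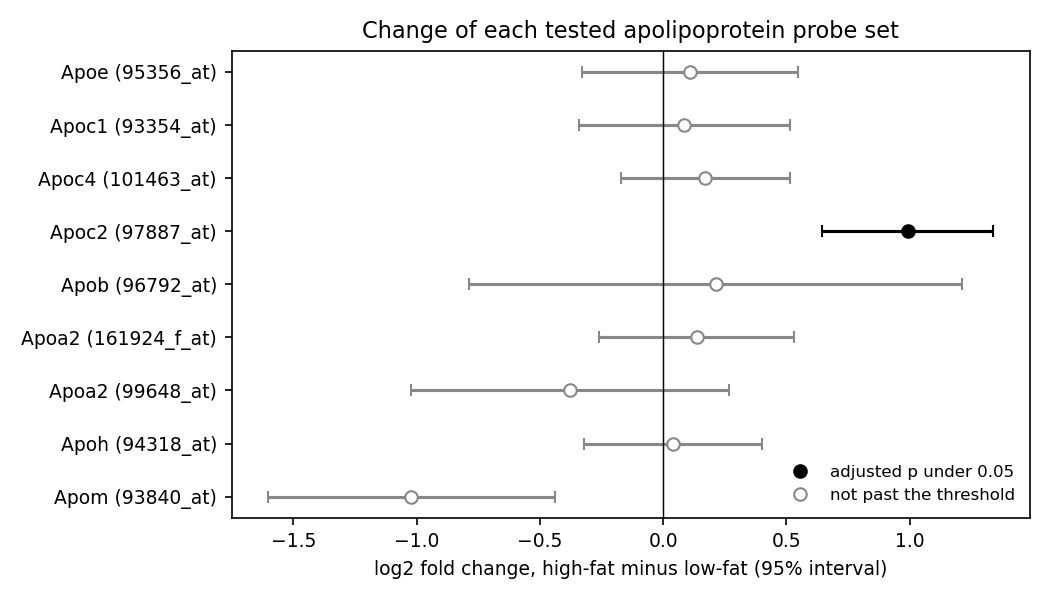
Log2 fold change, high-fat minus low-fat, of each of the 9 tested apolipoprotein probe sets with its 95% interval from limma; filled points passed an adjusted p of 0.05. The interval of Apoc2 runs from 0.64 to 1.34, that of Apom from -1.60 to -0.44, and each of the other 7 includes 0.

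Apoc2 measured 12457.5, 12794.4 and 11011.5 with the high-fat diet (arrays 1, 2 and 3), against 6834.3, 6635.2 and 4927.5 with the low-fat diet, in deposited linear intensity. Every high-fat array lay above every low-fat array. The high-fat mean was 12088 ± 947 and the low-fat mean 6132 ± 1048 (SD, n = 3 each). Apoc2 rose 1.99-fold (95% interval 1.56 to 2.53), or by 0.99 ± 0.15 (SE) as log2 (adjusted p = 0.0223). The size of this change was between 0.84 and 1.08 with any array left out, but Apoc2 no longer passed when high-fat array 1 (adjusted p = 0.0565) or 2 (0.113) or low-fat array 1 (0.0590) or 2 (0.0832) was removed. It passed without either array numbered 3 (0.0288 for high-fat, 0.0499 for low-fat). The call was lost with a variance prior that ignores intensity (0.118) or without a filter on dim probe sets (0.221).

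The neighbours of Apoc2 had intervals that exclude a 1.5-fold change in either direction. Apoc4, which encodes a minor C apolipoprotein, had intensities of 15880.1, 13492.7 and 11739.1 with the high-fat diet and 12061.6, 13243.4 and 11023.4 with the low-fat diet. These ranges overlapped, and the log2 change was 0.17 (95% interval -0.17 to 0.51, adjusted p = 0.834). Apoc1 encodes apolipoprotein C-I, which hinders the uptake of particles by receptors, and its intensities were 31699.3, 29660.2 and 23301.3 with the high-fat diet and 29950.5, 28347.4 and 21610.0 with the low-fat diet. Its log2 change was 0.085 (95% interval -0.34 to 0.51, adjusted p = 0.957).

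The bright Apoe probe set read 48678.2, 44006.5 and 39079.4 with the high-fat diet and 48215.5, 42038.2 and 33023.2 with the low-fat diet. The ranges overlapped, with a log2 change of 0.11 (95% interval -0.33 to 0.55, adjusted p = 0.942). These values were 94.1% to 100% of the highest value on their array, and the files hold no flag for saturation, which would shrink a difference. The other Apoe probe set was above the floor of 68.9 on 1 of 6 arrays, with values from 23.1 to 88.7, and was not tested.

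**Figure D2:**
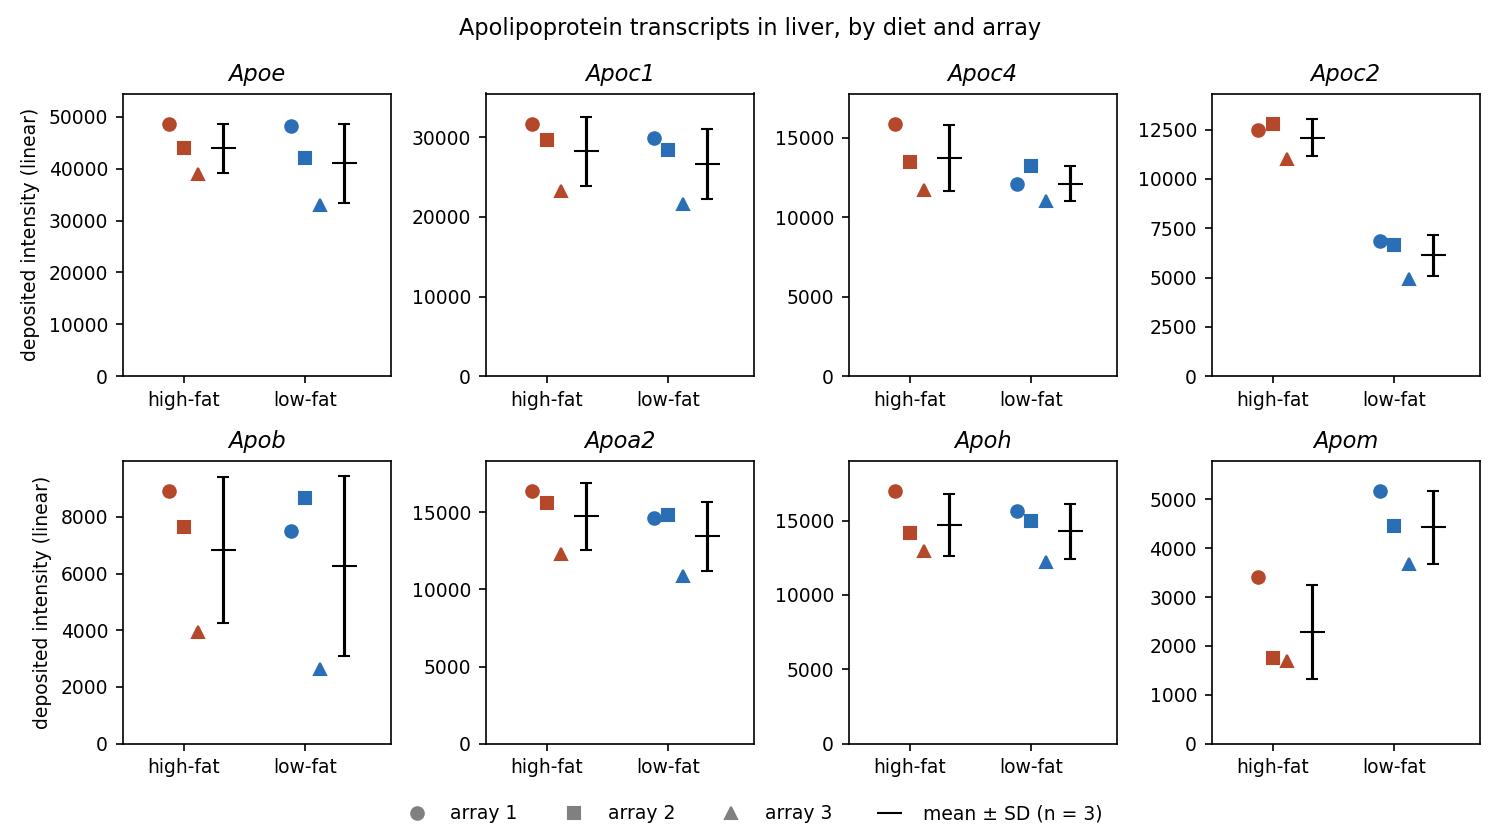
Deposited linear intensity of the brightest probe set of each of the 8 genes on every array, high-fat left and low-fat right, with the mean ± SD of 3 arrays beside the points; every axis starts at 0. The diets are apart for Apoc2 (11011.5 and above against 6834.3 and below) and Apom (3403.2 and below against 3668.8 and above) and overlap for the other 6 genes.

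Whether the cluster genes changed unequally was tested within arrays, by subtracting the log2 value of Apoe from that of each neighbour on the same array, which removes any factor that scales both. For Apoc2 this difference was -1.97, -1.78 and -1.83 with the high-fat diet (arrays 1, 2 and 3) and -2.82, -2.66 and -2.74 with the low-fat diet. The diets were separated by 0.88 on the log2 scale, a 1.84-fold change of the ratio, against SDs of 0.096 with the high-fat and 0.078 with the low-fat diet. Any saturation of the bright Apoe probe set would alter the size of this ratio and of the others below. The exact two-sided permutation p was 0.1, the smallest that 3 arrays against 3 allow, and 0.3 after Benjamini-Hochberg adjustment over the 3 neighbours tested, so the design could not pass 0.05. For Apoc1 the difference from Apoe averaged -0.64 ± 0.091 with the high-fat diet and -0.62 ± 0.060 with the low-fat diet (SD, n = 3 each, exact permutation p = 0.6, adjusted 0.9). For Apoc4 it averaged -1.69 ± 0.062 with the high-fat diet and -1.75 ± 0.22 with the low-fat diet (SD, n = 3 each, exact permutation p = 0.9, adjusted 0.9). The sign turned for Apoc1 when high-fat array 3 or low-fat array 2 was left out, and for Apoc4 when low-fat array 1 was.

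**Figure D3:**
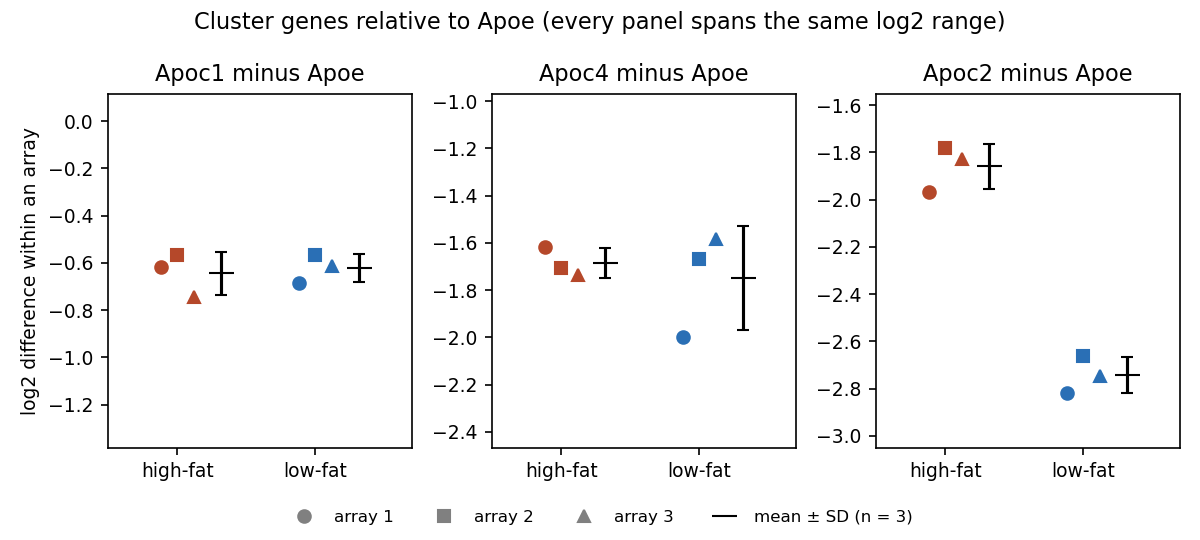
Log2 intensity of Apoc1, Apoc4 and Apoc2 minus that of Apoe on the same array, high-fat left and low-fat right, with the mean ± SD of 3 arrays; all panels span the same number of log2 units. Apoc2 lies between -1.97 and -1.78 on the high-fat arrays and between -2.82 and -2.66 on the low-fat arrays, while the diets overlap for Apoc1 and Apoc4.

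In the RefSeq gene table of assembly GRCm38.p6 the cluster runs in the order Apoc2, Apoc4, Apoc1, Apoe. RefSeq also lists a read-through locus, Gm44805, with the synonym Apoc4-apoc2, across Apoc2 and Apoc4. It has no named probe set, and whether the probe sets of Apoc2 and Apoc4 also read its transcripts was not tested. The nearest tested genes beyond Apoc2 were Clptm1, Relb and Clasrp, and those beyond Apoe were Tomm40, Nectin2 and Bcl3. None of these 6 passed limma's test, and 0 had an unadjusted p under 0.05. The membrane protein gene Clptm1, next to Apoc2, read 2650.4, 1773.4 and 1749.7 with the high-fat diet and 2103.0, 2459.3 and 1487.2 with the low-fat diet, a log2 change of 0.032 (adjusted p = 0.989). Tomm40, a mitochondrial import channel gene next to Apoe, had a log2 change of 0.14 (adjusted p = 0.943), and Nectin2, a cell adhesion gene, 0.050 (adjusted p = 0.974).

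The sequence just before the start of Apoc2, the called gene, is shown with those of its neighbours Apoc4 and Apoe and of Apom, the member with the lowest log2 fold change. The window of 142 bases is the whole gap between the end of Apoc4 and the start of Apoc2 in RefSeq, and the other windows have the same length, each ending at the base before a RefSeq start (GRCm38.p6, all on the minus strand). They are chr7:19677942-19678083 for Apoc2, chr7:19681461-19681602 for Apoc4, chr7:19699189-19699330 for the most 5′ of the 3 starts listed for Apoe, and chr17:35131802-35131943 for Apom. Capitals mark matches to any of the motifs named after the sequences.
Apoc2: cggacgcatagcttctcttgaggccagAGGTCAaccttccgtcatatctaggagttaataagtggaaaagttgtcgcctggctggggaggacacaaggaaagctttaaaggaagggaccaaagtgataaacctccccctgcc
Apoc4: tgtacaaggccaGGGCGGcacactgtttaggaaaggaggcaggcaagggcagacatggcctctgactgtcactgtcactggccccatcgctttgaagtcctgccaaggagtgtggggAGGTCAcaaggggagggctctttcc
Apoe: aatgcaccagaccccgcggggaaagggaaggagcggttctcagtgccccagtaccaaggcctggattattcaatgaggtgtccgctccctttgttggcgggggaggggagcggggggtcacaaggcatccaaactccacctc
Apom: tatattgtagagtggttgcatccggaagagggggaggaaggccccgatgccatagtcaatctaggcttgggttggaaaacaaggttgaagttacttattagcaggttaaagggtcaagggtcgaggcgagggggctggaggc

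Both strands of each window were searched for TATAAA, known as the TATA box, for GGGCGG, which binds Sp1-type factors, and for AGGTCA, which is the core that many nuclear receptors bind. No match overlapped another in a printed window. The Apoc2 window held AGGTCA 1 time, starting 115 bases before the gene. The Apoc4 window held AGGTCA 25 bases and GGGCGG 130 bases before the gene, and the Apoe and Apom windows shown held 0 of the motifs. Of 32851 mouse windows of 142 bases, 8.12% held AGGTCA, 28.2% GGGCGG and 7.3% TATAAA. Among the members not printed, Apob held TATAAA 60 bases before its start, a second Apoe start held it in overlapping copies 100 and 96 bases before, and Apoa2 and Apoh held none of the motifs.

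The structural gene of very-low-density lipoprotein, Apob, had intensities of 8899.1, 7634.2 and 3942.2 with the high-fat diet and 7500.0, 8648.2 and 2648.5 with the low-fat diet. The array numbered 3 was far below the others on both diets, and the diets overlapped. Its log2 change of 0.21 had a 95% interval from -0.79 to 1.21 (adjusted p = 0.952), so a change of over 2-fold in the upward direction lay within the error. The coefficient of variation between arrays was 37.7% for high-fat and 50.8% for low-fat, against 7.84% and 17.1% for Apoc2.

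Apom, which encodes the carrier of sphingosine-1-phosphate on high-density lipoprotein, read 3403.2, 1745.2 and 1701.5 with the high-fat diet, against 5165.0, 4457.4 and 3668.8 with the low-fat diet. All 3 high-fat arrays were below all 3 low-fat arrays, though high-fat array 1 lay close to low-fat array 3. The ratio of the low-fat to the high-fat diet was 2.03 (95% interval 1.36 to 3.04), or -1.02 ± 0.26 (SE) as log2, and its unadjusted p of 0.00324 did not pass over all probe sets (adjusted p = 0.180). Without high-fat array 1 the log2 change was -1.35 and it passed (adjusted p = 0.0111), and with any other array left out the adjusted p was between 0.194 and 0.499. The second Apom probe set was above the floor on 1 of 6 arrays and was not tested.

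Apoa2, which encodes a main protein of high-density lipoprotein, was measured by probe sets that differ in sign. The bright one, whose suffix marks probes shared within a gene family, read 16357.2, 15572.5 and 12264.2 with the high-fat diet and 14645.0, 14805.2 and 10869.5 with the low-fat diet (log2 change 0.14, 95% interval -0.26 to 0.53, adjusted p = 0.903). The dim one read 77.4, 143.3 and 105.8 with the high-fat diet and 131.0, 142.8 and 137.8 with the low-fat diet, close to the floor (log2 change -0.38, 95% interval -1.02 to 0.27, adjusted p = 0.793). In both, the diets overlapped.

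Apoh read 16969.7, 14179.1 and 12926.3 with the high-fat diet and 15662.7, 14962.4 and 12206.4 with the low-fat diet. The diets overlapped, and its log2 change was 0.040 (95% interval -0.32 to 0.40, adjusted p = 0.981). The lower and upper ends of this interval correspond to 0.80-fold and 1.32-fold.

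The members shared a pattern across arrays that the diets do not describe. On the high-fat arrays, the one numbered 3 was the lowest for 8 of the 9 tested member probe sets, against 32.8% of all tested probe sets, and on the low-fat arrays the one numbered 3 was again the lowest for 8 of the 9, against 33.5%. The exception was the dim Apoa2 probe set on both diets. The log2 value of Apob on array 3 minus the mean of arrays 1 and 2 was -1.06 with the high-fat and -1.60 with the low-fat diet. For Apoe the difference was -0.24 with the high-fat and -0.45 with the low-fat diet, and for Apoc2 it was -0.20 with the high-fat and -0.45 with the low-fat diet. The Gapdh control probe sets at both ends of the transcript gave 3′ to 5′ ratios of 1.22, 1.23 and 0.89 with the high-fat diet (arrays 1, 2 and 3) and 1.04, 1.07 and 0.82 with the low-fat diet. The array numbered 3 of each diet thus had the least 3′ signal relative to 5′ signal, that is, the least 3′ bias. The part of RNA quality in this pattern was not tested. Without both arrays numbered 3, a choice made after the values were seen, the log2 change of Apoc2 was 0.91 (adjusted p = 0.0315) and that of Apob 0.033.

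**Figure D4:**
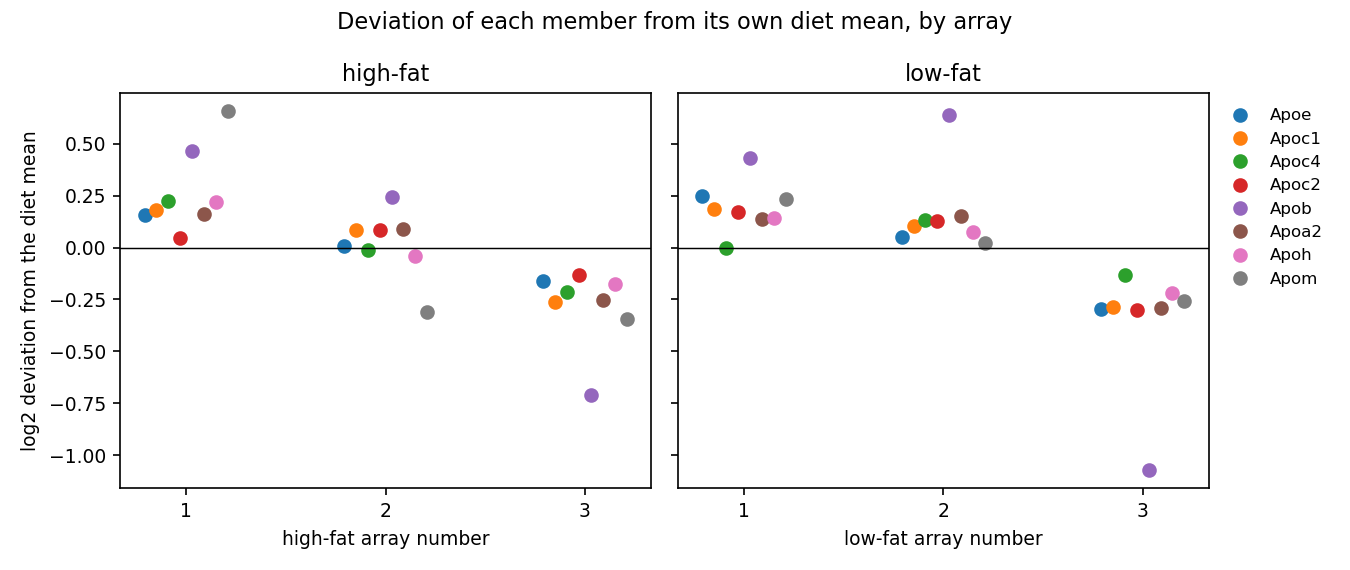
Log2 deviation of the brightest probe set of each member from its own mean on that diet, by array number, high-fat left and low-fat right. All 8 points of the arrays numbered 3 lie below 0 on both diets, those of Apob farthest.

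The liver label was checked against marker genes. All 10 hepatocyte markers with a probe set were tested, 5 of them had a log2 fold change above 0, and 0 passed limma's threshold (2 at an unadjusted p under 0.05). Their summed intensity was 225841, 191302 and 177999 on the high-fat arrays 1, 2 and 3 and 226094, 217410 and 195139 on the low-fat arrays. The sum was thus lowest on the array numbered 3 of each diet, as were Alb, Cps1, Fabp1, Cyp2e1 and Ahsg among the markers. Ttr, Tat, Ass1, Tdo2 and Fgb were not lowest there on both diets. Fgb was highest there, at 9079.0 with the high-fat and 9172.6 with the low-fat diet. The array pattern of the members was thus shared by some other bright liver genes but not by all. Macrophages also transcribe the Apoe-Apoc genes, and 13 of 14 tested Kupffer cell and macrophage markers were above 0 in log2 fold change, their median was 0.31, and 0 passed limma's threshold (3 at an unadjusted p under 0.05). Of all tested probe sets, 50.5% were above 0 and 9.07% had an unadjusted p under 0.05. The summed intensity of the 15 macrophage markers with a probe set was 13657.6, 12456.5 and 14851.8 with the high-fat diet and 12378.9, 9589.1 and 9369.5 with the low-fat diet, which did not overlap, and 0 of them were at or under the floor on all arrays. Their part in the change of Apoc2 was not tested. In whole liver, fewer cells of a type and less RNA per cell cannot be told apart. Of the enterocyte markers, whose cells also secrete apolipoproteins, Fabp2 rose (adjusted p = 0.0120), Lct did not pass and Vil1 was under the floor on all 6 arrays. Fabp2 read 1874.2, 2465.7 and 2762.6 with the high-fat diet, against 504.7, 948.6 and 658.0 with the low-fat diet. It made up nearly all of the sum of the 3 markers, which was between 1935.5 and 2817.2 with the high-fat diet and between 590.2 and 1007.8 with the low-fat diet, and the log2 change of Lct was -0.11. Lct was above the floor on 1 high-fat array and 2 low-fat arrays, so the size of its change depends on the floor.

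The wider lipoprotein pathway was described with a list of 50 genes in 6 roles, of which 33 had a probe set and 31 were tested, with 1 probe set per gene. Of the 31, 1 rose, 0 fell and 30 did not pass in limma (4 at an unadjusted p under 0.05), against 0.458% called higher and 0.458% called lower among all 6557 tested genes. The median log2 fold change was 0.011 for the list and 0.0077 for all tested genes, and 17 of the 31 were above 0. Among all 6557 tested genes, 3363 were above 0 and 623 had an unadjusted p under 0.05, shares close to those of the list. The 17 genes for which the table names no probe set are not analysed here and include Lipc and Apoc3.

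Of 5 other apolipoprotein genes tested, 1 rose and all 5 had a log2 fold change above 0. The called gene was Apoa4, a secreted apolipoprotein of triglyceride-rich particles, at 8782.4, 13938.1 and 14216.4 with the high-fat diet, against 1038.7, 1129.4 and 927.3 with the low-fat diet, 11.7-fold (adjusted p = 6.52e-05). Apoa5, which promotes lipolysis, was at 13186.1, 12402.3 and 12347.9 with the high-fat diet and at 10582.4, 11792.6 and 11006.6 with the low-fat diet (log2 change 0.19, adjusted p = 0.746). Among 5 genes of apolipoprotein B editing, lipidation and secretion 0 passed limma's test, and 1, P4hb, had an unadjusted p under 0.05. P4hb encodes protein disulfide isomerase, a subunit of the microsomal triglyceride transfer protein, and its brighter probe set had a log2 change of -0.81 (adjusted p = 0.512) but its other probe set 0.051. Cideb, which encodes a lipid droplet protein that takes part in lipidation, had a log2 change of 0.23 (adjusted p = 0.675).

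Lpl encodes lipoprotein lipase, the enzyme that apolipoprotein C-II activates. Its brighter probe set read 840.0, 529.8 and 513.8 with the high-fat diet, against 273.5, 276.1 and 235.3 with the low-fat diet, with no overlap. This is 1.23 ± 0.23 (SE) as log2 (adjusted p = 0.0539). A dimmer Lpl probe set read 270.6, 162.0 and 260.5 with the high-fat diet and 51.4, 90.6 and 61.7 with the low-fat diet, and passed narrowly (log2 change 1.58, adjusted p = 0.0499). It was above the floor on 3 high-fat arrays and 1 low-fat array, so it entered the test through its high-fat values, and the size of its change depends on the floor to which the other low-fat values were raised. Angptl4, whose protein inhibits lipoprotein lipase, measured 999.8, 991.9 and 848.2 with the high-fat diet, all below the 1011.1, 1263.7 and 1211.0 of the low-fat arrays (log2 change -0.29, adjusted p = 0.607). In its other tested probe sets the diets overlapped (log2 changes -0.18 and -1.25, adjusted p = 0.813 and 0.669). In the role of lipases, transfer and remodelling, 0 of 5 genes passed limma's test with their brighter probe set and 1, Lpl, had an unadjusted p under 0.05.

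Of 6 receptor genes and their regulators 0 passed limma's test and 0 had an unadjusted p under 0.05. The scavenger receptor gene Scarb1, which takes up cholesterol from high-density lipoprotein, had a log2 change of 0.19 (adjusted p = 0.827), and Vldlr, a receptor of triglyceride-rich particles, 0.38 (adjusted p = 0.851). Vldlr read 95.3, 192.9 and 92.9 with the high-fat diet and 96.2, 117.8 and 38.9 with the low-fat diet, close to the floor. Its other probe set was under the floor on every array. Of the sterol efflux genes, Abca1 was at 2212.5, 2190.6 and 2190.4 on the high-fat arrays, above the 1406.8, 1798.6 and 1957.1 of the low-fat arrays (log2 change 0.37, adjusted p = 0.458), though its other probe set had a log2 change of -0.032. Abcg1 had a log2 change of -0.12 (adjusted p = 0.946), so 0 of these 2 passed limma's test and 1 had an unadjusted p under 0.05. Of 8 transcription factors tested 0 passed limma's test and 0 had an unadjusted p under 0.05, with the smallest p-values for the nuclear receptor genes Nr2f2 (log2 change -0.54, adjusted p = 0.577) and Rxra (log2 change -0.44, adjusted p = 0.618). In this Rxra probe set the diets overlapped. Its other probe set was lower on every high-fat array, with a smaller log2 change of -0.21 (adjusted p = 0.741).

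**Figure D5:**
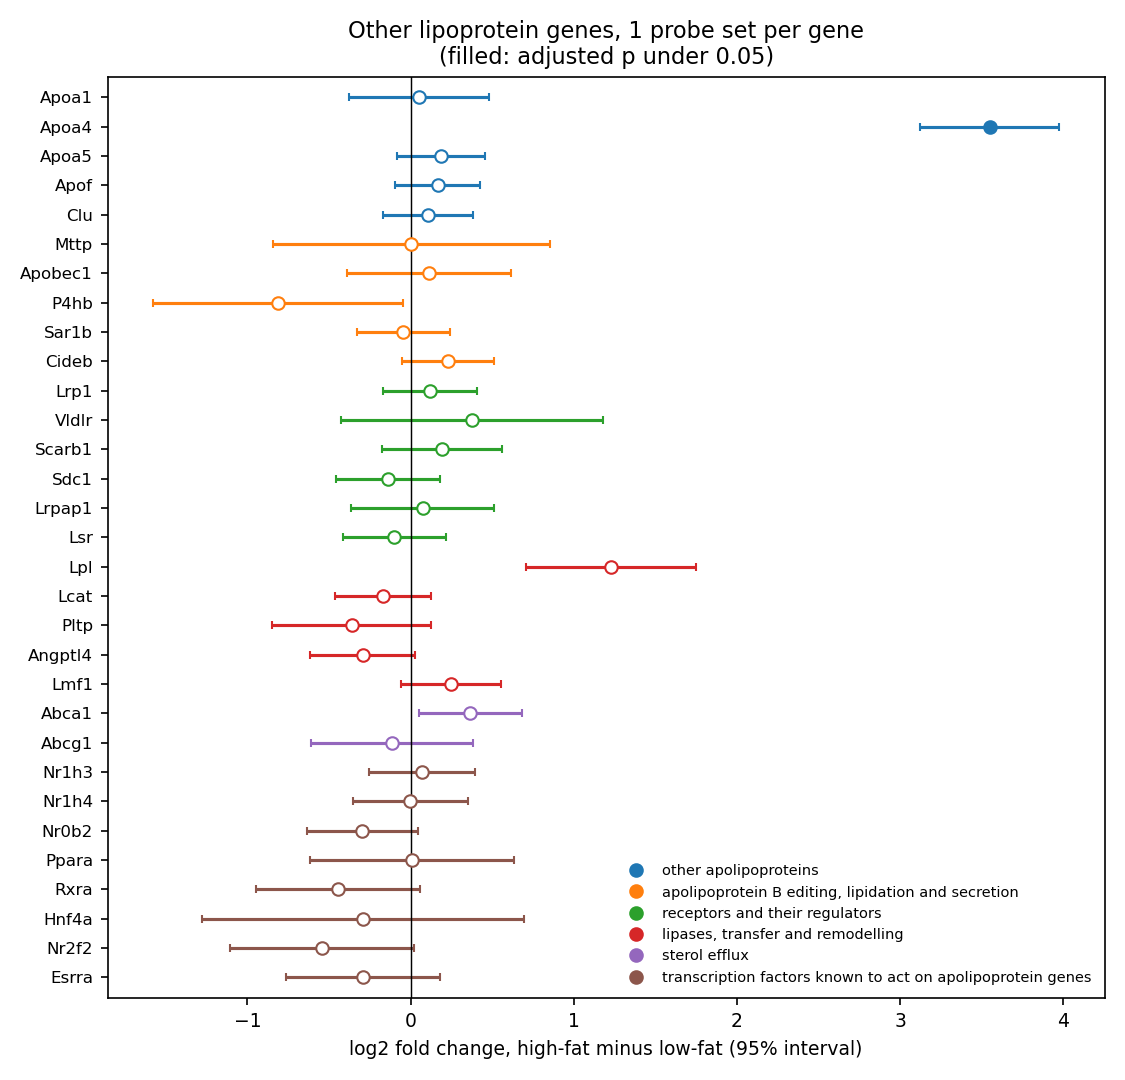
Log2 fold change, high-fat minus low-fat, of the 31 tested genes of the lipoprotein list, coloured by role, with 95% intervals from limma; filled points passed an adjusted p of 0.05. Apoa4, at 3.55, is the filled point, and Lpl, at 1.23, lies next highest.

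The genes most like Apoc2 and Apoe across the 6 arrays were found by the root mean square difference of log2 values after each gene was centred on its own mean, among all tested genes. For Apoc2 they were the tubulin gene Tubb5 (difference 0.12), Creld2, which is induced in endoplasmic reticulum stress (0.13), Dmwd (0.17), Klk1 (0.17) and the glypican gene Gpc1 (0.18). The distances and ranks of Klk1 and Dmwd depend on the floor, since Klk1 was above it on 1 of the low-fat arrays and Dmwd on 2. For Apoe they were the ribosomal protein gene Rpl41 (0.035), Apoa1 (0.039), Cd24a (0.042), Tmem150a (0.044) and Siae (0.044). The probe sets of Tubb5, Klk1 and Rpl41 carry the suffix that marks probes shared within a gene family, so their values may not be of the named gene alone. Apoa1, which encodes the main protein of high-density lipoprotein, read 41543.5, 39146.6 and 33837.1 with the high-fat diet and 44423.0, 36996.8 and 30091.8 with the low-fat diet, and like Apoe it was lowest on the array numbered 3 of each diet.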

How the data were processed

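Liver RNA of 6 mouse arrays was analysed from the deposited linear intensities, 1 per probe set and array. The labels name neither the authors' software nor their background correction. The deposited values show whole-array scaling: the mean without the lowest and highest 2% was 500.4 on every array.

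Groups and array numbers came from the titles. The platform's gene table gave 10855 probe sets 1 symbol, 396 several and 1237 none. Values under the pooled 30th percentile, 68.9, were raised to it before log2. Tested were probe sets above this floor on 3 arrays or more, without the 66 controls. The 8950 probe sets tested were fitted with limma 3.58.1 in R 4.3.3 (lmFit, eBayes with a variance trend), two-sided, high-fat minus low-fat, and adjusted by Benjamini-Hochberg over all of them. Adjusted p-values are limma's unless called exact. Group means and SDs are of deposited intensities. A gene is represented by its brightest probe set (highest mean log2). Single values were compared by exact permutation in scipy 1.17.1. The fit was tested on simulated data.

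Named genes are all members, list genes past the threshold, the 2 of smallest p per role, 3 tested neighbours on each side of the cluster, and the 5 nearest patterns. Members and lists were chosen with earlier results of these data known. Promoter sequences are RefSeq's (GRCm38.p6), and Apoc1 has none printed. Alternatives were other scalings, floors and filters, an added constant, no variance trend, the replicate number as a block, and each array left out. The number of arrays limits the precision.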

Additional observations from a re-analysis of the deposited data

How the results depend on the processing

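As reported, 1 member probe set, 74 probe sets in all and 1 pathway gene were called. Without a filter these were 0, 8 and 1, and without the variance trend 0, 20 and 1. The pathway genes called were 2, Apoa4 and Lpl, with the floor at the 50th percentile, with a constant added in place of the floor, with a filter on all 6 arrays and with the replicate block. Without both arrays numbered 3, chosen after seeing the data, the calls in all were 38 and the members' 1. With each array left out in turn, the calls ranged from 0 to 1 for members, from 26 to 75 in all (28 when high-fat array 2 was removed, and 31, 26 and 45 when low-fat array 1, 2 or 3 was), and stayed at 1 for the pathway. In those fits the log2 change ranged from -0.041 to 0.23 for Apoe, from -0.058 to 0.22 for Apoc1, from -0.32 to 0.57 for Apob, from -0.010 to 0.26 for the bright Apoa2 probe set and from -0.069 to 0.13 for Apoh, so their signs turned, while Apoc2 stayed between 0.84 and 1.08 and Apom between -1.35 and -0.85. The within-array difference from Apoe ranged from -0.060 to 0.028 for Apoc1, from -0.061 to 0.15 for Apoc4 and from 0.85 to 0.94 for Apoc2. With fewer arrays the fit has fewer samples; other causes were not tested. Quantile normalization and scaling to a common median kept the call of Apoc2 (adjusted p = 0.0152 and 0.0433).

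With the replicate number as a block, 2 member probe sets were called, Apoc2 (adjusted p = 0.00516) and Apom (0.0206), and 103 in all. Whether equal numbers mark paired arrays is not settled by the values. Same-numbered arrays of the diets had correlations of deviations from their diet means of 0.071, 0.11 and 0.31. High-fat array 1 correlated best with low-fat array 2 (0.11). The arrays numbered 3 correlated best with each other, and negatively with arrays 1 and 2 of the other diet. Deviations from a diet mean cancel out within each gene, so these negative values follow at least in part from the positive one. They are not a separate observation on pairing.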

Other observations

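Some list genes outside the members stood apart on the arrays numbered 3, Hnf4a and Mttp in the other direction from Apob and Ppara in the same direction. They were chosen after their values were seen. Hnf4a, a nuclear receptor gene known to act on apolipoprotein promoters, read 666.1, 566.4 and 1771.7 on the high-fat arrays 1, 2 and 3 and 939.8, 743.3 and 1752.2 on the low-fat arrays. Mttp, which encodes the large subunit of the microsomal triglyceride transfer protein, read 290.2, 216.1 and 593.4 on the high-fat arrays and 279.9, 283.1 and 464.3 on the low-fat arrays. In both genes the array numbered 3 was the highest on each diet, and neither passed the diet comparison in limma (adjusted p = 0.920 and 0.999). Ppara, the receptor gene of the fatty acid response, was lowest on the arrays numbered 3, at 4486.6, 3609.8 and 2652.0 on the high-fat and 4063.8, 4599.5 and 2248.0 on the low-fat arrays.

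The dimmer Abca1 probe set also stood apart on the arrays numbered 3, at 220.0, 218.6 and 1072.5 on the high-fat and 266.8, 222.1 and 930.2 on the low-fat arrays. The brighter one read between 2190.4 and 2212.5 on the high-fat arrays and was highest on array 3 among the low-fat arrays, at 1957.1.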
